A study of Homo sapiens with 2 samples.

Results

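Long non-coding RNAs were compared between enzalutamide-resistant C4-2B ENZR cells and enzalutamide-sensitive C4-2B Con cells. The genes were taken by symbol. They comprised every long intergenic gene with a LINC number, every numbered small nucleolar RNA host gene (SNHG), every microRNA host gene (MIR...HG), and named transcripts such as MALAT1, NEAT1, DANCR, GAS5, PVT1, PCAT1 and SCHLAP1. The rule found 664 of the 25343 rows of the deposited table, of which 611 were LINC, 18 SNHG, 23 microRNA host and 12 named genes. A mean of 1 CPM or more over both libraries was reached by 177 of them, and by 13803 rows in all. These 177 measured genes were 145 LINC, 16 SNHG, 9 microRNA host and 7 named genes. Of the other 487 rows, 255 had 0 reads in both libraries and 232 had at least 1 read.

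C4-2B is a castration-resistant line derived from C4-2, itself a derivative of the human prostate cancer line LNCaP. C4-2B ENZR cells (n = 1 library) were maintained in 20 µM enzalutamide, an antiandrogen that blocks the androgen receptor. C4-2B Con cells (n = 1 library) were kept in parallel in the same serum-containing medium with DMSO. Both sample titles end in shC, a label that the sources used here do not explain. Total RNA was sequenced as single reads of 50 bases, and how the RNA was selected before library preparation is not given. Each line is represented by 1 library, so no value has a replicate and no test of the conditions was possible. In such bulk RNA fewer cells of a type and less RNA per cell cannot be told apart.

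Long non-coding RNAs are transcribed and usually spliced like messenger RNAs but are not known to direct a protein. MALAT1 stays in the nucleus with splicing speckles, NEAT1 is the scaffold of paraspeckles, SNHG genes carry small nucleolar RNAs in their introns, and microRNA host genes carry microRNA hairpins. In prostate cancer several of these transcripts are used as markers, among them PCA3, PCAT1 and SCHLAP1.

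The recovered reads totalled 23479051 in ENZR and 21024484 in Con, so that 1 read was worth 0.0404 CPM in ENZR and 0.0490 CPM in Con. CPM is the number of reads of a gene per 1000000 reads, here after the authors' TMM scaling, and it is not divided by transcript length. The 664 genes together took 0.587% of the ENZR reads and 0.462% of the Con reads. Without MALAT1 these shares were 0.333% and 0.343%. All 7 listed luminal prostate markers passed the filter, among them KRT8 at 340 CPM in ENZR and 268 CPM in Con. KLK2 and KLK3 were the 2 that were 2-fold lower, KLK3 at 3.72 CPM in ENZR and 1428 CPM in Con. The 3 basal markers summed to 0.0404 CPM in ENZR and 0.392 CPM in Con, and the 4 leukocyte markers to 0.202 CPM and 0.490 CPM, with KRT5, TP63 and CD3E at 0 reads in both. The 4 stromal markers summed to 46.8 CPM in ENZR and 20.4 CPM in Con, of which COL1A1 alone gave 44.4 CPM and 18.1 CPM. The 3 endothelial ones summed to 4.57 CPM and 10.5 CPM, of which VWF gave 2.91 CPM and 8.92 CPM. ACTA2 and PECAM1 had ratios of 1.02 and 1.06, DCN had 2 reads in ENZR and 0 in Con, and COL1A2 and CDH5 had 0 reads in both. The part of these markers in the results was not tested.

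As a group the measured long non-coding RNAs lay close to all measured genes in median log2 ratio, whereas the shares past 2-fold differed within ranges of level. Ratios were taken on the log2 scale, ENZR over Con, with 1 CPM added to both values. A gene was counted as 2-fold apart at a log2 ratio of 1 or more, or of -1 or less. At least 2-fold higher in ENZR were 8 of the 177 genes (4.52%), against 6.69% of all measured genes. At least 2-fold lower were 10 (5.65%), against 4.64% of all measured genes. The other 159 lay in between. With the TMM scaling undone the balance turned to 10 higher and 6 lower, beside 7.76% and 3.80% of all measured genes. Upper quartile scaling gave 10 higher and 8 lower, beside 7.16% and 4.27%, and scaling that ignored the 10 most abundant genes gave 11 and 6, beside 7.85% and 3.83%. Past 4-fold were 1 higher gene (0.565%, against 1.91% of all measured genes) and 3 lower genes (1.69%, against 1.16%). The median log2 ratio was -0.08, against -0.01 over all measured genes, with a lower quartile of -0.43 and an upper quartile of 0.22. Most of these RNAs had low values, and 122 of the 177 had a mean under 10 CPM. In that range 6 long non-coding RNAs were 2-fold higher (4.92%, against 14.1% of all genes of that range) and 4 were 2-fold lower (3.28%, against 7.31%). Among the 55 with a mean of 10 CPM or more, 2 were higher (3.64%) and 6 lower (10.9%), beside 3.94% and 3.66% of all genes at that level.

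The folds given below are plain CPM ratios. Where a range follows one in parentheses, it is an exact 95% interval that covers counting error only. This interval lay above 1 for 40 of the 177 genes (22.6%, against 34.6% of all measured genes) and below 1 for 61 (34.5%, against 36.6%). It compares these 2 libraries and says nothing on variation between cultures.

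**Figure D1:**
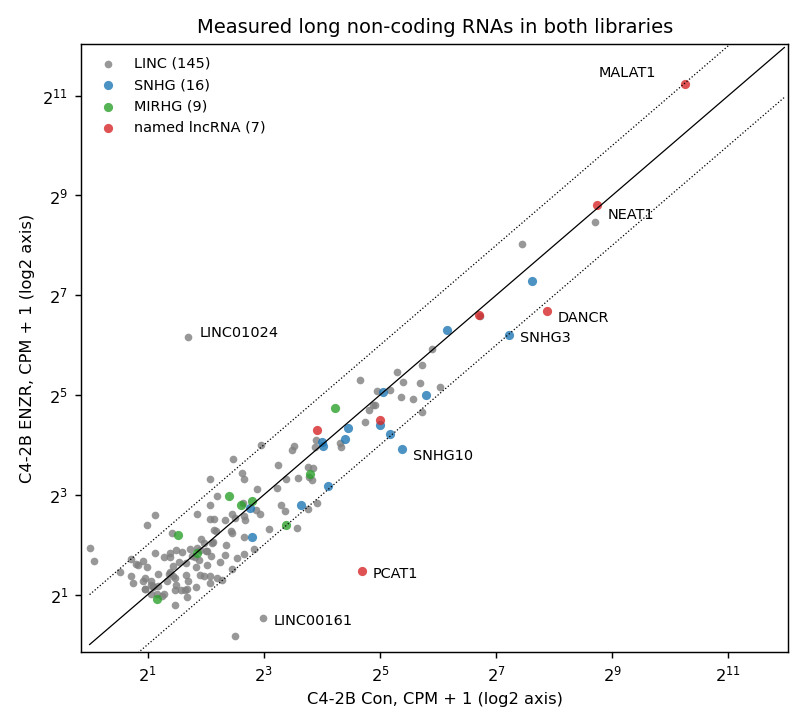
Each point is 1 measured long non-coding RNA, with its level in C4-2B ENZR on the y axis and in C4-2B Con on the x axis (CPM + 1, log2 axes), coloured by symbol class. The solid line marks equal levels and the dotted lines 2-fold, and LINC01024 stands above while PCAT1 and LINC00161 stand below the band that holds most genes.

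Small nucleolar RNA host genes were mostly lower in ENZR. Their introns release small nucleolar RNAs, which guide chemical modification or processing of ribosomal and other RNAs, while the spliced host transcript is in many cases degraded after a ribosome has read it. The 16 measured SNHG genes had a median log2 ratio of -0.47. Of these, 13 were below 0 (81.2%, against 50.5% of all measured genes) and 3 above 0. The counting interval lay below 1 for 10 (62.5%, against 36.6% of all measured genes). It lay above 1 for 1 (6.25%, against 34.6%) and held 1 for 5. At least 2-fold lower were 2 (12.5%, against 4.64%), and none was 2-fold higher (against 6.69%). GAS5 and DANCR are hosts of the same kind, and the summed level of all 18 hosts was 708 CPM in ENZR and 1058 CPM in Con, 1.49-fold lower.

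The start of transcription is shown for the 6 hosts with the lowest log2 ratios and the 3 with the highest, among those with an entry in the RefSeq promoter table (GRCh38.p14). Each window runs from 20 bases before the annotated start to 40 bases from it, on the gene's strand. Capitals mark the unbroken run of C and T that begins at the first transcribed base, the place of the terminal oligopyrimidine tract that many translation-related genes carry.
SNHG10 (chr14:95534833-95534892, minus strand): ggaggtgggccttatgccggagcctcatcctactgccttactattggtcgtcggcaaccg
DANCR (chr4:52712374-52712433, plus strand): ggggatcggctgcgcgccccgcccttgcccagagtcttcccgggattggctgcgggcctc
SNHG3 (chr1:28505923-28505982, plus strand): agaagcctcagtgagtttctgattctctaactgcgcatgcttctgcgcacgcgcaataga
SNHG4 (chr5:139274081-139274140, plus strand): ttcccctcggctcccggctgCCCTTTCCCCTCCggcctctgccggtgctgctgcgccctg
SNHG5 (chr6:85678694-85678753, minus strand): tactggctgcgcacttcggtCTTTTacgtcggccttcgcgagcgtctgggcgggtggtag
SNHG8 (chr4:118278742-118278801, plus strand): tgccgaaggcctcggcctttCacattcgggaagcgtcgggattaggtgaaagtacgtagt
SNHG17 (chr20:38435289-38435348, minus strand): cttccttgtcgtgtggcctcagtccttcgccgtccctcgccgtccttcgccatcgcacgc
SNHG12 (chr1:28581834-28581893, minus strand): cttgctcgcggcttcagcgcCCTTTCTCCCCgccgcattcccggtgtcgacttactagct
SNHG1 (chr11:62855846-62855905, minus strand): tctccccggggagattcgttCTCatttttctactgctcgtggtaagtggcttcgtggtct

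A C at the first base followed by 4 pyrimidines was present at the annotated start of 3 of the 15 hosts with an entry (20%), namely SNHG4, SNHG5 and SNHG12, and at 4.04% of the 27305 RefSeq starts. SNHG4 and SNHG5 were among the lower hosts, whereas SNHG12 was not. The start base depends on the transcript that RefSeq chose for each gene.

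SNHG10, whose gene lies beside GLRX5, had 14.1 CPM in ENZR and 40.6 CPM in Con, 2.87-fold lower (2.53 to 3.27). It had the lowest ratio of the hosts. Its neighbour, by which the nearest measured gene on a side is meant at whatever distance, was GLRX5, a glutaredoxin of iron-sulfur cluster assembly, at 73.1 CPM in ENZR and 84.5 CPM in Con. LINC00341 on the other side had 1.33 CPM in ENZR and 0.686 CPM in Con. DANCR, first described as a transcript that holds back differentiation of progenitor cells, had 102 CPM in ENZR and 235 CPM in Con, 2.30-fold lower (2.19 to 2.41). Its nearest measured neighbours showed ratios near 1, with USP46 at 55.0 CPM in ENZR and 54.7 CPM in Con and ERVMER34-1 at 39.5 CPM and 40.9 CPM.

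SNHG3, host of SNORA73A and SNORA73B, had 72.5 CPM in ENZR and 149 CPM in Con, 2.06-fold lower (1.94 to 2.18). RCC1, which encodes a nuclear exchange factor and whose span overlaps SNHG3, was at 155 CPM in ENZR and 227 CPM in Con, 1.46-fold lower (1.40 to 1.53). The nearest measured genes on either side of SNHG3 were slightly higher, PHACTR4 at 66.6 CPM in ENZR and 61.2 CPM in Con and TRNAU1AP with a ratio of 1.08. SNHG4, host of SNORA74A and SNORA74D, had 17.8 CPM in ENZR and 35.0 CPM in Con, 1.97-fold lower (1.75 to 2.23). MATR3, a nuclear matrix protein gene whose span overlaps SNHG4, was higher at 493 CPM in ENZR and 422 CPM in Con, 1.17-fold higher (1.13 to 1.20). Reads of 50 bases that fall in shared parts of such pairs cannot be told apart.

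SNHG9, host of SNORA78 beside the ribosomal protein gene RPS2, had 8.01 CPM in ENZR and 16.2 CPM in Con, 2.02-fold lower (1.69 to 2.42). RPS2 itself was at 3308 CPM in ENZR and 3634 CPM in Con, and TBL3 on the other side was at 77.7 CPM and 54.0 CPM. SNHG5, host of SNORD50A and SNORD50B, had 5.90 CPM in ENZR and 11.4 CPM in Con, 1.93-fold lower (1.57 to 2.39). Its neighbour SYNCRIP, which encodes an RNA-binding protein, was lower by a like ratio, at 240 CPM in ENZR and 470 CPM in Con, while ZNF292 on the other side was at 15.4 CPM and 13.4 CPM. SNHG8, host of SNORA24, had 30.9 CPM in ENZR and 54.6 CPM in Con, 1.77-fold lower (1.61 to 1.94).

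SNHG21 had 3.44 CPM in ENZR and 5.93 CPM in Con, 1.72-fold lower (1.30 to 2.30). SNHG7, host of the SNORA17 pair, had 20.1 CPM in ENZR and 30.9 CPM in Con, 1.54-fold lower (1.37 to 1.73), and FAM69B, which overlaps it on the other strand, was 1.60-fold lower. SNHG16 and SNHG15 were 1.27-fold (1.21 to 1.32) and 1.23-fold lower (1.07 to 1.41). In these 4 hosts the interval lay below 1 without reaching 2-fold on the log2 scale.

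The remaining hosts had ratios near 1. SNHG20 was at 19.1 CPM in ENZR and 20.9 CPM in Con, SNHG6 at 32.4 CPM and 32.2 CPM, and SNHG12 at 15.7 CPM and 14.9 CPM, each with an interval that held 1. SNHG11 was at 5.62 CPM in ENZR and 5.78 CPM in Con and SNHG17 at 14.8 CPM and 15.1 CPM, and both log2 ratios, -0.03 as deposited, turned positive with the TMM scaling undone (0.07 and 0.08). GAS5, a host first found in growth-arrested cells, had 96.1 CPM in ENZR and 104 CPM in Con, 1.08-fold lower (1.02 to 1.15). Its log2 ratio of -0.11 became 0.00 with the TMM scaling undone. SNHG1, host of 8 C/D box small nucleolar RNAs, had 78.2 CPM in ENZR and 70.2 CPM in Con, a ratio of 1.11 (1.04 to 1.19), and was the only host with an interval above 1.

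The hosts can be grouped by the kind of small nucleolar RNA that RefSeq places inside them. Only symbols that begin with SNORA (H/ACA box) or SNORD (C/D box) were counted. The 9 hosts with only SNORA symbols, for H/ACA box RNAs that guide pseudouridylation, had log2 ratios from -1.19 in DANCR to -0.03 in SNHG17. Their median was -0.80. The 4 hosts with only SNORD symbols, for C/D box RNAs that guide ribose methylation, ranged from -0.85 in SNHG5 to 0.15 in SNHG1. Their median was -0.16. RefSeq also places a small nucleolar RNA of unstated kind inside SNHG1 and another inside SNHG17. The ranges overlap, the grouping was made after the values were seen, and no test was run. By these symbols GAS5 and SNHG12 hold both kinds, and none was found inside SNHG10, SNHG20 and SNHG21. Small RNAs under other symbols, such as those that begin with SCARNA, were not counted in any host, so these hosts may hold others.

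**Figure D2:**
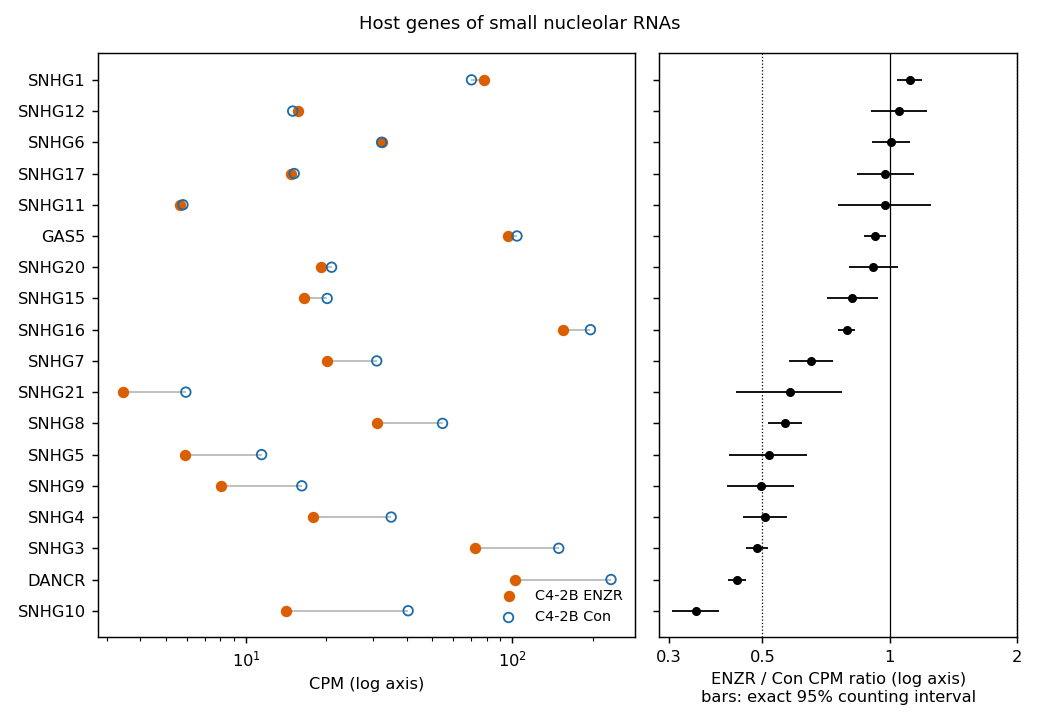
Left, CPM (log axis) of the 18 small nucleolar RNA host genes in C4-2B ENZR (filled) and C4-2B Con (open), ordered by log2 ratio. Right, the ratio of ENZR over Con (log axis) with its exact 95% counting interval, where the solid line marks 1 and the dotted lines 2-fold, and SNHG10 and DANCR lie lowest while SNHG1 lies above 1.

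Protein-coding genes of the same pathway were all within 2-fold. Of all measured genes 6.69% were 2-fold higher and 4.64% 2-fold lower, with 50.5% below 0 and 49.5% above. Of 32 measured coding hosts of small nucleolar RNAs, such as ribosomal protein genes and EIF4A1, 23 were below 0 and 9 above, none was 2-fold apart, and the median log2 ratio was -0.16. Of these genes 11 of 25 with an entry (44%) had a C and 4 pyrimidines at the annotated start. The 15 genes of small nucleolar RNA-protein assembly, among them FBL and DKC1, had a median of -0.15 with 12 below 0 and none 2-fold apart. The 17 factors of nonsense-mediated decay, the route by which many spliced host transcripts are removed, had a median of 0.09 with 15 above 0, and none was 2-fold apart. With the TMM scaling undone the median of all genes was 0.10, against -0.01 as deposited, so the size of such small medians depends on the scaling. The medians of these 3 lists were not recomputed under other scalings, and whether their direction would hold was not tested.

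MALAT1 was higher in ENZR and took the largest number of reads of the 664 genes. It had 2412 CPM in ENZR and 1221 CPM in Con, a ratio of 1.98 (1.95 to 2.00). Its log2 ratio of 0.98 lay just under 2-fold and passed it when the TMM scaling was undone (1.10), when the upper quartile set the scale (1.04) and when scaling ignored the 10 most abundant genes (1.10). NEAT1, which lies beside MALAT1 on chromosome 11, had 451 CPM in ENZR and 426 CPM in Con, a ratio of 1.06 (1.03 to 1.09). Proteins of the structures that these RNAs belong to were mostly close to 1. Of 14 nuclear speckle genes none was 2-fold apart and the median log2 ratio was 0.09. For comparison, 6.69% of all measured genes were 2-fold higher and 4.64% 2-fold lower. Of 14 paraspeckle genes 1 was 2-fold higher, HNRNPH3, an RNA-binding protein gene at 205 CPM in ENZR and 102 CPM in Con (ratio 2.02, 1.92 to 2.13). The core paraspeckle genes NONO and SFPQ had ratios of 1.06 and 1.21.

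PCAT1, a prostate cancer-associated transcript of the gene-poor region near MYC, had the lowest log2 ratio of the measured members. It had 1.78 CPM in ENZR (44 reads) and 24.8 CPM in Con (506 reads), 13.9-fold lower (10.2 to 19.4). Its nearest measured neighbours did not share that ratio, with PRNCR1, another non-coding transcript of the region, at 3.07 CPM in ENZR and 3.14 CPM in Con, and FAM84B at 103 CPM and 135 CPM. PVT1, the non-coding gene next to MYC, had 18.8 CPM in ENZR and 14.0 CPM in Con, a ratio of 1.34 (1.15 to 1.56). MYC itself stood at 248 CPM in both libraries, and GSDMC on the other side was at 1.62 CPM in ENZR and 1.37 CPM in Con.

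SCHLAP1, a transcript reported to antagonise the SWI/SNF chromatin complex, had 21.5 CPM in ENZR and 31.2 CPM in Con, 1.45-fold lower (1.29 to 1.63). Its neighbour UBE2E3, a ubiquitin-conjugating enzyme gene, was at 27.7 CPM in ENZR and 59.1 CPM in Con, 2.13-fold lower. CWC22, the nearest measured gene on the other side, was at 31.6 CPM in ENZR and 32.4 CPM in Con. Of the Polycomb repressive complex 2, to which several long non-coding RNAs have been linked, all 11 listed genes were measured. None was 2-fold apart (against 6.69% higher and 4.64% lower of all measured genes), and the median log2 ratio was 0.14.

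The other named transcripts were under 1 CPM on average. PCA3, the urinary prostate cancer marker, had 11 reads in ENZR and 12 in Con, a ratio of 0.757 with an interval from 0.303 to 1.87. H19, an imprinted growth-related transcript, had 3 reads in ENZR and 22 in Con, 8.88-fold lower (2.67 to 46.4). MEG3, also imprinted, had 5 and 10 reads, and HOTAIR had 1 read in each library. PCGEM1, a prostate-specific transcript, had 0 reads in both, which allows up to 0.121 CPM in ENZR and 0.147 CPM in Con.

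MicroRNA host genes differed in both directions, from 2.19-fold lower in MIR600HG to a ratio of 1.91 in MIR497HG. None of the 9 was 2-fold apart on the log2 scale with 1 CPM added. Of all measured genes 6.69% were 2-fold higher and 4.64% 2-fold lower, so so few hosts could show none without differing from other genes. A selection of the mature microRNAs that RefSeq places on the host's strand is shown, 1 arm each, for the hosts whose interval excluded 1 (miR-3619 and miR-4763, also in MIRLET7BHG, are left out), for MIR17HG as the host of a cluster, and for LINC00478, named after its values were seen, which hosts a further let-7. Each sequence is from RefSeq (GRCh38.p14), and capitals mark the seed, bases 2 to 8.
let-7a-5p, in MIRLET7BHG: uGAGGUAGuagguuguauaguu
let-7b-5p, in MIRLET7BHG: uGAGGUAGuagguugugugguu
let-7c-5p, in LINC00478: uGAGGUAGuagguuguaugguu
miR-4458, in MIR4458HG: aGAGGUAGguguggaagaa
miR-195-5p, in MIR497HG: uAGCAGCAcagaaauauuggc
miR-497-5p, in MIR497HG: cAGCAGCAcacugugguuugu
miR-22-3p, in MIR22HG: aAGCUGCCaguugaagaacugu
miR-600, in MIR600HG: aCUUACAGacaagagccuugcuc
miR-17-5p, in MIR17HG: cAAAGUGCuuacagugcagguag
miR-20a-5p, in MIR17HG: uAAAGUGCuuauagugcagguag
miR-18a-5p, in MIR17HG: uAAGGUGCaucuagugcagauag
miR-19a-3p, in MIR17HG: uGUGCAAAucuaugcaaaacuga
miR-19b-3p, in MIR17HG: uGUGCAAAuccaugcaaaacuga
miR-92a-3p, in MIR17HG: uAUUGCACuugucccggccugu

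MIRLET7BHG, host of let-7a-3 and let-7b, had 25.8 CPM in ENZR and 17.7 CPM in Con, a ratio of 1.46 (1.28 to 1.66). The let-7 family restrains proliferation and stem cell programmes in many tissues. LINC00478, host of let-7c, miR-99a and miR-125b-2, had 14.8 CPM in ENZR and 10.4 CPM in Con, a ratio of 1.41 (1.19 to 1.68). MIR4458HG, whose microRNA carries the same GAGGUAG seed, was lower at 9.75 CPM in ENZR and 12.9 CPM in Con, 1.32-fold lower (1.11 to 1.58). The hosts of microRNAs with the let-7 seed thus did not share a direction.

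MIR497HG, host of miR-497 and miR-195, which share the seed AGCAGCA, had 3.56 CPM in ENZR and 1.86 CPM in Con, a ratio of 1.91 (1.29 to 2.88). MIR22HG had 6.83 CPM in ENZR and 4.26 CPM in Con, a ratio of 1.60 (1.23 to 2.10), and the genes on either side of it were also higher. TLCD2 was at 41.9 CPM in ENZR and 23.0 CPM in Con, and WDR81 at 67.9 CPM and 48.5 CPM. MIR600HG had 4.29 CPM in ENZR and 9.41 CPM in Con, 2.19-fold lower (1.72 to 2.81), with a log2 ratio of -0.98 that became -1.05, past 2-fold, with a pseudocount of 0.5 CPM. STRBP, whose span overlaps MIR600HG, was at 96.7 CPM in ENZR and 96.8 CPM in Con.

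For the other 4 hosts the interval held 1. MIR17HG, host of the miR-17-92 cluster that promotes proliferation in many cancers, had 6.31 CPM in ENZR and 5.93 CPM in Con. It lies on chromosome 13, and of its 20 nearest measured genes 17 had log2 ratios below 0 and 8 were at least 2-fold lower. MIR210HG, host of the hypoxia-induced miR-210, had 2.55 CPM in ENZR and 2.60 CPM in Con, with a log2 ratio of -0.02 that became 0.07 with the TMM scaling undone. MIR4697HG had 5.94 CPM in ENZR and 5.10 CPM in Con, and MIRLET7DHG, with let-7d on the opposite strand, 0.890 CPM and 1.22 CPM. The median log2 ratio of the 9 measured hosts was 0.08. The 18 microRNA genes inside them had rows of their own with 0 reads in each library, so these values describe the host transcripts and not the microRNAs. Of the microRNA processing genes, 15 were measured, and their median log2 ratio was 0.06. None was 2-fold apart, against 6.69% higher and 4.64% lower of all measured genes.

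**Figure D3:**
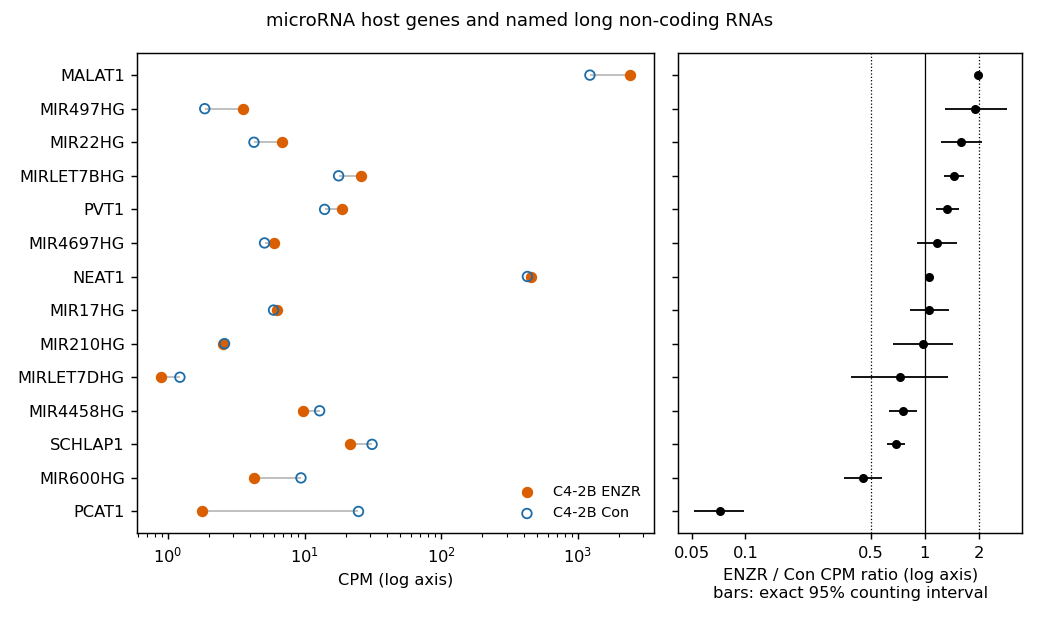
Left, CPM (log axis) of the 9 measured microRNA host genes and of MALAT1, NEAT1, PVT1, SCHLAP1 and PCAT1 in C4-2B ENZR (filled) and C4-2B Con (open), ordered by log2 ratio. Right, the ratio of ENZR over Con (log axis) with its exact 95% counting interval, where PCAT1 stands apart at 13.9-fold lower and MALAT1 lies at 1.98.

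The 145 measured LINC genes held 8 that were 2-fold higher in ENZR (5.52%, against 6.69% of all measured genes) and 6 that were 2-fold lower (4.14%, against 4.64%). Their median log2 ratio was -0.07. The counting interval lay above 1 for 33 (22.8%, against 34.6% of all measured genes). It lay below 1 for 45 (31%, against 36.6%) and held 1 for 67. Of these genes 20 reached 1 CPM in only 1 of the libraries, so that their place among the measured genes rests on the library in which they were higher.

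The promoters of the LINC gene with the highest log2 ratio and of the 2 with the lowest are printed from RefSeq (GRCh38.p14), from 250 bases before the annotated start to 50 after it, on the gene's strand. Capitals mark matches on either strand to AGAACA, the half-site of steroid receptors, to TGTTTAC, a forkhead motif, and to CACGTG, an E-box.
LINC01024 (chr5:140107963-140108262, minus strand): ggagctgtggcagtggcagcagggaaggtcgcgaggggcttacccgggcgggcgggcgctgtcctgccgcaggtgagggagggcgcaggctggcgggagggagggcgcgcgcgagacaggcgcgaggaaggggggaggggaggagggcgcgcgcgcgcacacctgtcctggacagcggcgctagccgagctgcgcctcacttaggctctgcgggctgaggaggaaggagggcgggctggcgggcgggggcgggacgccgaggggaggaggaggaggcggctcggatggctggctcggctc
LINC00161 (chr21:28539068-28539367, plus strand): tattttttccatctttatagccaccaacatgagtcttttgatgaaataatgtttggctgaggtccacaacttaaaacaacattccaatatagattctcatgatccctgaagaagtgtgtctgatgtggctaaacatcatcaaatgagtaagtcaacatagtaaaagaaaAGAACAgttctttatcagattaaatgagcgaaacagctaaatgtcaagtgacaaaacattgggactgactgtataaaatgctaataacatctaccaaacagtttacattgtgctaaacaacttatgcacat
LINC01270 (chr20:50292470-50292769, plus strand): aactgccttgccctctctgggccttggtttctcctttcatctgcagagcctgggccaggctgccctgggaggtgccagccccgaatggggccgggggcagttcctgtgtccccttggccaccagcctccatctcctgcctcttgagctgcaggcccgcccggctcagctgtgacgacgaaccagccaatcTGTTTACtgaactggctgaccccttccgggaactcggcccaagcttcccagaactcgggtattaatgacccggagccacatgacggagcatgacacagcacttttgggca

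The LINC01024 window was 76.3% G and C with 34 CpG dinucleotides, and none of the 3 motifs was found in it. The LINC00161 window was 33.3% G and C with 1 CpG and held AGAACA. The LINC01270 window was 62% G and C with 11 CpG and held TGTTTAC. Over all 27305 promoters the mean was 57.2% G and C, and the median was 14 CpG. Of the 15 members at least 2-fold apart that had an entry, 2 held AGAACA (13.3%, against 14.9% of all promoters), 1 held TGTTTAC (6.67%, against 3.41%) and 0 held CACGTG (against 7.43%). Such matches are descriptions of letters and not of binding.

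LINC01024, which RefSeq now names MALINC1, had the highest log2 ratio of all members. It had 70.6 CPM in ENZR (1746 reads) and 2.25 CPM in Con (46 reads), a ratio of 31.3 (23.4 to 43.0). It lies next to PURA, which encodes a nucleic acid-binding protein of neuronal development and was at 331 CPM in ENZR and 70.6 CPM in Con, 4.68-fold higher. CXXC5, the nearest measured gene on the other side, was at 15.2 CPM in ENZR and 17.5 CPM in Con. Of the 20 nearest measured genes of LINC01024, 3 were 2-fold higher and 3 were 2-fold lower.

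LINC01019 had 2.83 CPM in ENZR (70 reads) and 0 reads in Con, at least 19.3-fold higher when the floor of 3 counts stands in for Con. The exact interval, which also holds the counting error of the ENZR reads, began lower, at 15.3. C5orf38, its nearest measured neighbour on one side, was lower, at 0.243 CPM in ENZR and 3.63 CPM in Con, and KIAA0947 on the other side was at 53.8 CPM and 70.8 CPM. LINC00540 had 54 reads in ENZR and 1 in Con, a ratio of 44.6 (7.67 to 1793). It lies on chromosome 13, where its neighbour MICU2, a regulator of mitochondrial calcium uptake, was lower, at 86.8 CPM in ENZR and 134 CPM in Con.

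LINC01133 had 5.01 CPM in ENZR and 1.18 CPM in Con, a ratio of 4.26 (2.74 to 6.91). Its neighbour IGSF9, an immunoglobulin superfamily gene, was at 44.5 CPM in ENZR and 25.2 CPM in Con, also higher, while PIGM on the other side was at 48.1 CPM and 46.5 CPM. LINC01139 had 4.29 CPM in ENZR and 0.980 CPM in Con, a ratio of 4.37 (2.70 to 7.45). Its neighbour RYR2, a calcium release channel gene, was lower, at 5.18 CPM in ENZR and 16.0 CPM in Con, while CHRM3 on the other side was at 10.2 CPM and 7.89 CPM.

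The other 3 higher LINC genes had ratios under 3. LINC00648 had 12.2 CPM in ENZR and 4.56 CPM in Con (ratio 2.68, 2.12 to 3.42). Its neighbours, 2 ribosomal protein genes, were slightly lower, RPL10L 1.21-fold and RPS29 1.08-fold. LINC01002 had 8.94 CPM in ENZR and 3.23 CPM in Con (ratio 2.76, 2.09 to 3.70). Its nearest measured gene on one side was WASH5P, a pseudogene of a family with near-identical copies at several chromosome ends. Whether reads of either gene were shared out among copies was not tested. WASH5P was at 31.8 CPM in ENZR and 23.7 CPM in Con, and PPAP2C on the other side at 29.4 CPM and 11.4 CPM. LINC00221 had 15.0 CPM in ENZR and 6.71 CPM in Con (ratio 2.24, 1.84 to 2.75), and TMEM121, its one listed neighbour, 5.05 CPM and 1.62 CPM.

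LINC00161 had the lowest log2 ratio of the LINC genes. It had 0.445 CPM in ENZR (11 reads) and 6.91 CPM in Con (141 reads), 15.5-fold lower (8.42 to 31.8). ADAMTS1, a metalloprotease gene and its nearest measured gene on one side at whatever distance, was at 55.0 CPM in ENZR and 204 CPM in Con. N6AMT1 on the other side was at 6.51 CPM in ENZR and 7.74 CPM in Con. LINC01270 had 3 reads in ENZR and 96 in Con, 38.8-fold lower (12.9 to 191). It lies between CEBPB, a transcription factor gene at 44.1 CPM in ENZR and 59.1 CPM in Con, and the phosphatase gene PTPN1 at 83.4 CPM and 81.8 CPM.

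The other 4 lower LINC genes lay between 2-fold and 3-fold. LINC01003 had 4.04 CPM in ENZR and 10.9 CPM in Con, 2.70-fold lower (2.12 to 3.46). Its neighbours were KMT2C, a histone methyltransferase gene at 129 CPM in ENZR and 133 CPM in Con, and the DNA repair gene XRCC2 at 39.9 CPM and 54.8 CPM. LINC00476, which RefSeq now names ERCC6L2-AS1, had 6.11 CPM in ENZR and 14.2 CPM in Con, 2.32-fold lower (1.90 to 2.84). ERCC6L2, a helicase gene that overlaps it on the other strand, was at 32.4 CPM in ENZR and 34.1 CPM in Con. On either side, PTCH1 was at 22.9 CPM in ENZR and 33.6 CPM in Con and LINC00092 at 1.42 CPM and 2.25 CPM.

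LINC01184, now named SLC12A2-DT as the transcript divergent to SLC12A2, had 5.58 CPM in ENZR and 12.6 CPM in Con, 2.26-fold lower (1.83 to 2.80). SLC12A2, a sodium-potassium-chloride cotransporter gene, was at 60.7 CPM in ENZR and 75.0 CPM in Con, and PRRC1 on the other side at 96.6 CPM and 139 CPM. LINC00963, first described in the move of prostate cancer cells to androgen independence, had 24.3 CPM in ENZR and 52.1 CPM in Con, 2.14-fold lower (1.94 to 2.37). Its neighbour NTMT1, a methyltransferase gene, was at 34.5 CPM in ENZR and 62.2 CPM in Con, 1.80-fold lower, and IER5L on the other side at 5.90 CPM and 7.40 CPM. LINC00476, LINC00963, LINC01184 and SNHG3 lay near the threshold and came under 2-fold with the TMM scaling undone.

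**Figure D4:**
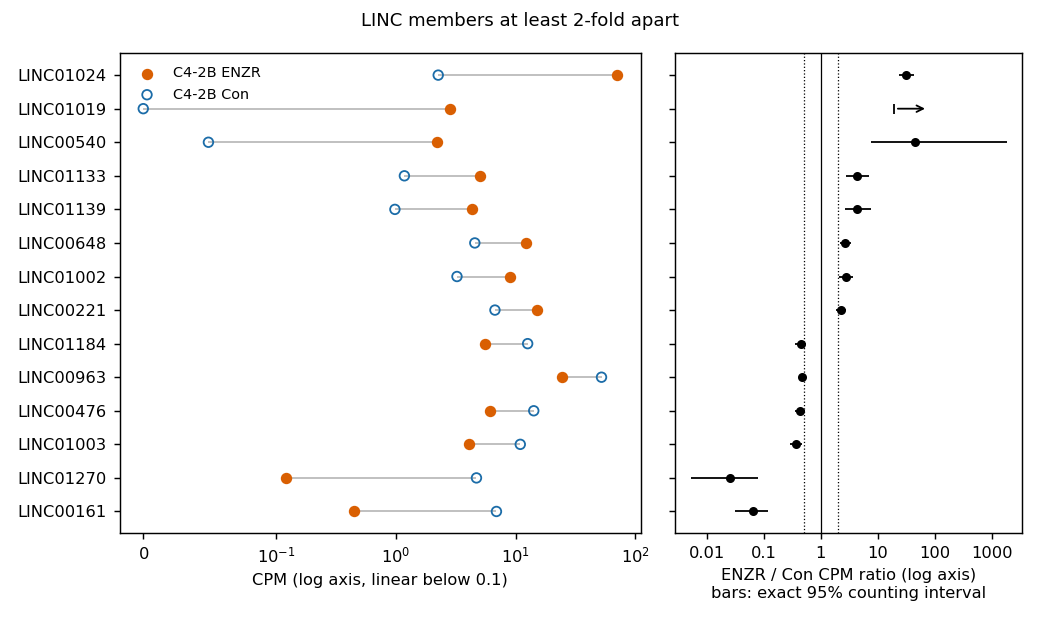
Left, CPM (log axis, linear below 0.1) of the 14 LINC genes at least 2-fold apart in C4-2B ENZR (filled) and C4-2B Con (open), ordered by log2 ratio. Right, the ratio of ENZR over Con (log axis) with its exact 95% counting interval, and for LINC01019, with 0 reads in Con, an arrow from 19.3, its ratio against the floor of 3 counts and not the start of an interval.

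The 5 LINC genes with the highest mean CPM, a choice that favours long transcripts, had modest ratios. LINC00657, now named NORAD, a cytoplasmic RNA that binds Pumilio proteins and guards chromosome number, had 352 CPM in ENZR and 415 CPM in Con, 1.18-fold lower (1.14 to 1.22). LINC00506 had 261 CPM in ENZR and 173 CPM in Con, a ratio of 1.51 (1.45 to 1.57). LINC00674 had 94.6 CPM in ENZR and 105 CPM in Con, 1.11-fold lower (1.04 to 1.17). LINC01000 had 59.6 CPM in ENZR and 58.3 CPM in Con, with an interval that held 1. LINC00998 had 35.0 CPM in ENZR and 64.7 CPM in Con, 1.85-fold lower (1.69 to 2.02).

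Not every gene with such a symbol is still listed as non-coding. Of the 177 measured genes 175 were matched to RefSeq by symbol or synonym, 39 of them under another current symbol, and 14 are now listed as protein-coding genes or as names merged into one. Among these are LINC00998 as SMIM30, LINC00116 as MTLN and LINC00493 as SMIM26, which encode small membrane proteins. The last pair was named after the values were seen. LINC00116 had 14.6 CPM in ENZR and 19.1 CPM in Con, 0.762 of the Con level (0.658 to 0.882). LINC00493 had 20.9 CPM in ENZR and 25.7 CPM in Con, 0.814 of the Con level (0.720 to 0.921). Of the 14 genes 9 were below 0 and 5 above, beside 57.1% of the 177 members and 50.5% of all measured genes below 0. Their median log2 ratio was -0.20. None was 2-fold apart, against 6.69% higher and 4.64% lower of all measured genes, and with 14 genes these counts set them apart from neither group.

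Each gene was also set beside its neighbours. For each of the 175 matched genes the median log2 ratio of up to 20 nearest measured genes, 10 on each side, was taken. Across genes, which share both libraries and are not independent replicates, its Pearson correlation with the member's log2 ratio was 0.08 and its Spearman correlation 0.24. Without the 18 genes at least 2-fold apart the Pearson correlation was 0.27 over 157 genes. Of these 18 genes, 9 had the sign of their neighbours' median. That median ranged from -0.79 for LINC00540 to 0.33 for LINC01133.

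On chromosome 13 the median of the long non-coding RNAs was above that of all genes. The 238 matched genes measured there had a median log2 ratio of -0.54, whereas the 9 long non-coding members on it had a median of 0.05, with 5 above 0 and 4 below. LINC01232 was the lowest of them at -0.73 and LINC00540 the highest at 1.60. These members had few reads each, and no test was run on the difference.

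An overlapping gene, on either strand, can also carry a member's reads, since no source used here says whether counting was by strand. The spans of 27 of the 175 matched genes overlapped another measured gene, 21 of them on the other strand. For LINC00936, named after its values were seen, the plasma membrane calcium pump gene ATP2B1 on the other strand was at 372 CPM in ENZR and 102 CPM in Con. LINC00936 itself was at 5.14 CPM in ENZR and 2.60 CPM in Con, a ratio of 1.98 (1.42 to 2.78). For LINC00311, also named after its values were seen, the overlapping GSE1, on the same or an unknown strand, was at 187 CPM in ENZR and 361 CPM in Con, while LINC00311 had 2.71 CPM and 2.74 CPM. Shared reads were not tested as a source of either value.

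**Figure D5:**
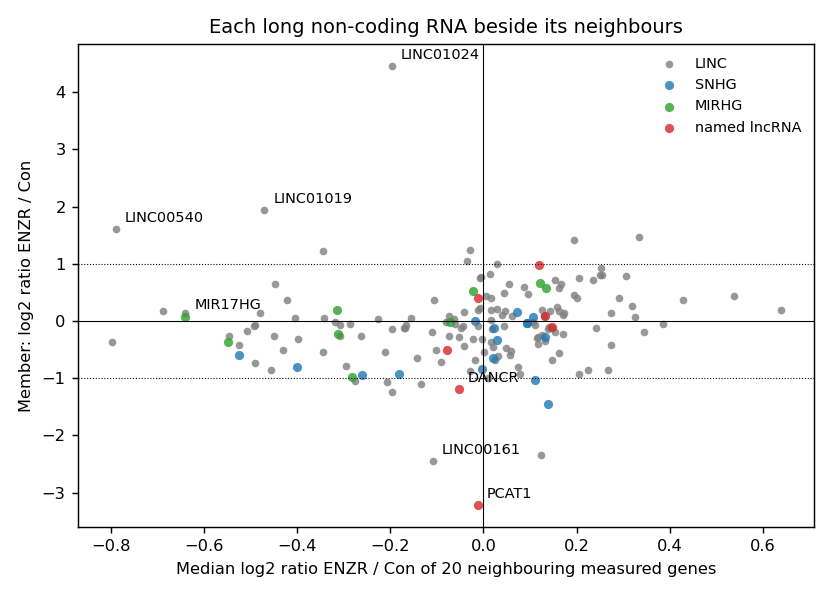
Each point is 1 of the 175 matched long non-coding RNAs, with its own log2 ratio of ENZR over Con on the y axis and the median log2 ratio of up to 20 neighbouring measured genes on the x axis. Dotted lines mark 2-fold, and LINC01024, LINC01019, LINC00540, PCAT1 and LINC00161 lie far from 0 on the y axis, with neighbours' medians closer to 0.

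The threshold of 1 CPM cuts through genes of like level. Just above it lay LINC00341 (1.33 CPM in ENZR and 0.686 CPM in Con), LINC00637 (1.01 CPM and 1.08 CPM) and LINC01355 (1.17 CPM and 0.931 CPM). Just below it lay LINC01099 (1.25 CPM and 0.735 CPM), LINC01001 (0.364 CPM and 1.62 CPM) and LINC01134 (0.849 CPM and 1.13 CPM). Of the 487 genes below it, 1 was at least 2-fold lower on the log2 scale, LINC00659, and none was 2-fold higher. Of these 487, 255 had 0 reads in both libraries, and adding 1 CPM leaves little room to pass 2-fold at such levels. Among all genes with at least 1 read, dropping the threshold raised the number from 13803 to 19303. Those 2-fold higher then rose from 923 to 1000 and those 2-fold lower from 641 to 672.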

How the data were processed

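RNA-seq of 1 C4-2B ENZR and 1 C4-2B Con library was used. The authors deposited 1 table with 1 signal value per gene and library, described as TMM-normalized CPM per the file's name. Without giving their roles, the submitters' processing notes list hg19, edgeR, RSEM 1.2.15 and Bowtie2 2.1.0. Neither the annotation nor any strand setting is given in the sources used here. Of further sample columns there were 0.

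Every deposited value was a whole multiple of 1 step (100% within 0.01 reads in each library), so whole reads were recovered; RSEM estimates may have been rounded. A quasi-likelihood test in edgeR cannot be fitted to 1 library a group, as no residual degrees of freedom remain, and no p-value is given. Log2 ratios used a pseudocount of 1 CPM. Intervals of plain ratios are exact (Clopper-Pearson, 95%) and, like the floor of 3 counts, cover counting error only. The calculation was tested on simulated reads. Python 3.11.15, numpy 2.4.6, scipy 1.17.1 and pandas 2.3.3 were used.

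Members and lists were chosen with earlier results of these data known. The genes named are all measured SNHG, microRNA host and named genes, the LINC genes at least 2-fold apart and the 5 of highest mean CPM. Nearest measured genes were named for members 2-fold apart and, beyond that rule and after their values were seen, for some others. RefSeq (GRCh38.p14) gave current names, neighbours and sequences, while the reads were mapped to hg19, so its coordinates locate only the printed sequences.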

Additional observations from a re-analysis of the deposited data

How the results depend on the processing

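Each count and median was recomputed under 8 other settings. With a pseudocount of 0.5 CPM 11 members were 2-fold higher and 16 lower, beside 7.45% and 5.25% of all genes, and with 5 CPM 1 was higher (LINC01024) and 4 lower, beside 3.24% and 2.69%. With a mean of 5 CPM or more, 4 were higher and 8 lower, beside 5.13% and 4.06%. With the TMM scaling undone 10 were higher and 6 lower, beside 7.76% and 3.80%, and the median log2 ratio of the members was 0.0146, and when scaling ignored the 10 most abundant genes 11 were higher and 6 lower, beside 7.85% and 3.83%, and that median was 0.0133. Under these 2 scalings the median of all genes was 0.10, above that of the members, as it was with the deposited scaling (-0.08 for the members and -0.01 for all genes). The medians of the LINC and of the named genes also crossed 0 (0.02 and 0.00 with the TMM scaling undone), and that of the LINC genes was 0.01 with no filter. The SNHG median stayed below 0, from -0.47 to -0.31. None of the 18 genes at least 2-fold apart changed sign, and MIR210HG, SNHG11, SNHG17 and GAS5 were the 4 of the 51 named members that did. No paired analysis was possible because each group has 1 library. Values under about 10 CPM rest on fewer reads than higher ones, with 1 read worth 0.0404 CPM in ENZR and 0.0490 CPM in Con.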
